A study of Mus musculus with 18 samples.

Results

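The genes described here encode 10 parts of the machinery that carries cytokine signals to STAT proteins in mouse intestine. They are the receptor chains Il6st, Il6ra, Osmr, Lifr, Il22ra1, Il10rb and Il4ra and the Janus kinases Jak1, Jak2 and Tyk2. They were chosen by gene symbol for their function, with earlier results of these data known. They are 10 of the 19938 genes that could be named on the arrays. Each gene is represented by 1 probe set, that with the highest mean, and 9 of the 10 members had a single one.

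Values are log2 expression from 18 Affymetrix arrays in 6 groups of 3, so a difference of 1 is a doubling. Replicates 1 to 3 are intestinal epithelial cells with floxed Stat3 alleles (Stat3fl/fl) and replicates 4 to 6 are epithelial cells labelled Stat3-/-. Replicates 7 to 9 (Stat3fl/fl) and 10 to 12 (Stat3-/-) are tumours of male mice, and 13 to 15 (Stat3fl/fl) and 16 to 18 (Stat3-/-) are tumours of female mice. The series asked if intestinal tumours progress without Stat3 in APCmin/+ mice, whose mutated Apc allele activates WNT signalling. Stat3 was removed with Cre under the Villin promoter, which is active in intestinal epithelium, so other cells of a tumour keep the gene. The controls carry the floxed alleles too. The sample labels call the tumours colorectal and induced with azoxymethane and dextransulfate, whereas the series text describes APCmin tumours mainly of the small intestine. No age is given for any group, no sex or Apc genotype is given for the epithelial cells, and nothing states that the 3 samples of a group are separate animals. The p-values thus measure the spread between samples, part of which may be technical.

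Cytokines of the interleukin-6 family signal through receptor complexes that share the chain gp130, the product of Il6st. Interleukin-6 adds the chain made by Il6ra, oncostatin M that of Osmr, and leukaemia inhibitory factor that of Lifr, while interleukin-22 uses Il22ra1 with Il10rb, a chain shared with interleukin-10. The receptors have no kinase of their own and rely on bound Janus kinases, which phosphorylate STAT3 and other STATs, and in the gut these signals are known for barrier defence and epithelial repair.

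The receptor genes Il6st, Osmr and Lifr rose together in tumours, and their promoter sequences are shown first, beside those of a receptor and a kinase that were lower there. Each is the 300 bases from 250 before to 50 after the RefSeq start (build GRCm38.p6), read 5′ to 3′ on the gene's strand, with the dinucleotide CG in capitals. The 10 windows in the RefSeq table covered 9 of the 10 members.
Il6st, chr13:112463820-112464119, plus strand: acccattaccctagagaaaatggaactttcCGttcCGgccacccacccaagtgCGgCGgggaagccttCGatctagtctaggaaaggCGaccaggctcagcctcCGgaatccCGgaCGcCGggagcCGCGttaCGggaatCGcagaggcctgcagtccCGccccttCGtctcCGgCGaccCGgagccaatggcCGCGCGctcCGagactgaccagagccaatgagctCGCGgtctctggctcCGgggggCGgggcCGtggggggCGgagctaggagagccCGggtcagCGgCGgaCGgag
Osmr, chr15:6874264-6874563, minus strand: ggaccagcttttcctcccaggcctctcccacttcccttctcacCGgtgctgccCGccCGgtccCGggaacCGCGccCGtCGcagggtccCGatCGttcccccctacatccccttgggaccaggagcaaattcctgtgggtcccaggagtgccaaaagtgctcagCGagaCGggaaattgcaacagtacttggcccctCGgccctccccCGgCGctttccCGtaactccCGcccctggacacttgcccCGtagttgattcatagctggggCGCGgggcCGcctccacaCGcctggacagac
Lifr, chr15:7129322-7129621, plus strand: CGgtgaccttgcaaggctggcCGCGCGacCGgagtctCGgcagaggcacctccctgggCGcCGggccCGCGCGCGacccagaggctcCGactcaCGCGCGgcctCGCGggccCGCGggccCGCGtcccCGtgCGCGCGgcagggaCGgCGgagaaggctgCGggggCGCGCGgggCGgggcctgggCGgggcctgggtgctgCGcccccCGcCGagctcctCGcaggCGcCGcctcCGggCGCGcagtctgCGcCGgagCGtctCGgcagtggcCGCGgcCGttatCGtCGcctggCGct
Il22ra1, chr4:135727909-135728208, plus strand: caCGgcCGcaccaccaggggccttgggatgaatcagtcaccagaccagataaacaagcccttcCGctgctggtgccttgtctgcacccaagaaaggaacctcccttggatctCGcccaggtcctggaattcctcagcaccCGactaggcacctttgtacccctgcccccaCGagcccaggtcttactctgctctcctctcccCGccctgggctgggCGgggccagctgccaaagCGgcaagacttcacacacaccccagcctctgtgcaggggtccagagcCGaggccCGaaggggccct
Jak2, chr19:29251553-29251852, plus strand: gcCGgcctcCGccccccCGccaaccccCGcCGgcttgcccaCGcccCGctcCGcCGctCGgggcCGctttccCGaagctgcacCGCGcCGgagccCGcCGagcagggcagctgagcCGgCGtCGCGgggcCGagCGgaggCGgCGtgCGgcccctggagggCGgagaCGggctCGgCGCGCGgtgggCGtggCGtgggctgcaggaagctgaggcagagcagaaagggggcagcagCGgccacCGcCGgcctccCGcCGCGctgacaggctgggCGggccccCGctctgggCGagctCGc
The Il6st window held 33 CG, more than 91.4% of the 32851 windows in the table, and the Osmr window held 22, more than 76.9%. The first Lifr window held 53 CG (more than 99.5%), while a second Lifr start, at chr15:7140292-7140591, held 4. Jak2, which was lower in control tumours, had 44 CG, and Il22ra1, also lower there, had 11, against a median of 7 over all windows. Promoters rich in CG therefore occurred among members that rose and among members that fell. The letters TTCNNNGAA, the general form that STAT proteins bind, were searched on both strands and found in 0 of the 10 member windows and in 8.3% of all windows. The stricter TTCCNGGAA, which is contained in the first, was in 0 of the 10 and in 1.15% of all. A match to the first form is shown for comparison from the promoter of Socs3, a feedback inhibitor known as a STAT3 target, with the matched letters in capitals, beginning 154 bases before the start.
Socs3, chr11:117969502-117969530, minus strand: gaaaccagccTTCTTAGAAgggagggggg

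Stat3 signal was lower in the arrays labelled Stat3-/-. Stat3 lay between 9.74 and 9.91 in the control epithelial cells and between 7.73 and 7.95 in the Stat3-deleted ones. The 6 control tumours ranged from 10.03 to 10.35 and the 6 Stat3-deleted ones from 7.74 to 8.46. The difference was -1.96 ± 0.15 (SE) in epithelial cells, -2.09 ± 0.15 in male tumours and -1.87 ± 0.15 in female tumours, with limma adjusted p of 1.23e-05, 4.7e-06 and 1.24e-05. No source used here says whether the Stat3 probes lie in the deleted part. The mean of 9 epithelial markers lay between 11.43 and 11.69 in the epithelial cells and between 11.10 and 11.74 in the tumours. That mean joins opposite changes, since in each genotype 2 of the 9 were called higher in tumours, 3 lower and 4 not called. The mean of 7 fibroblast markers lay between 6.23 and 6.83 in epithelial cells and between 9.03 and 10.77 in tumours, and that of 8 macrophage markers between 5.89 and 6.36 and between 7.22 and 9.25. None of these fibroblast and macrophage markers lay below the array's 25th percentile in all 6 epithelial arrays. Control tumours 9 and 15 stood apart from the others by colon markers, whose mean was 8.41 and 8.25 there and at most 6.64 in the other tumours.

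**Figure D1:**
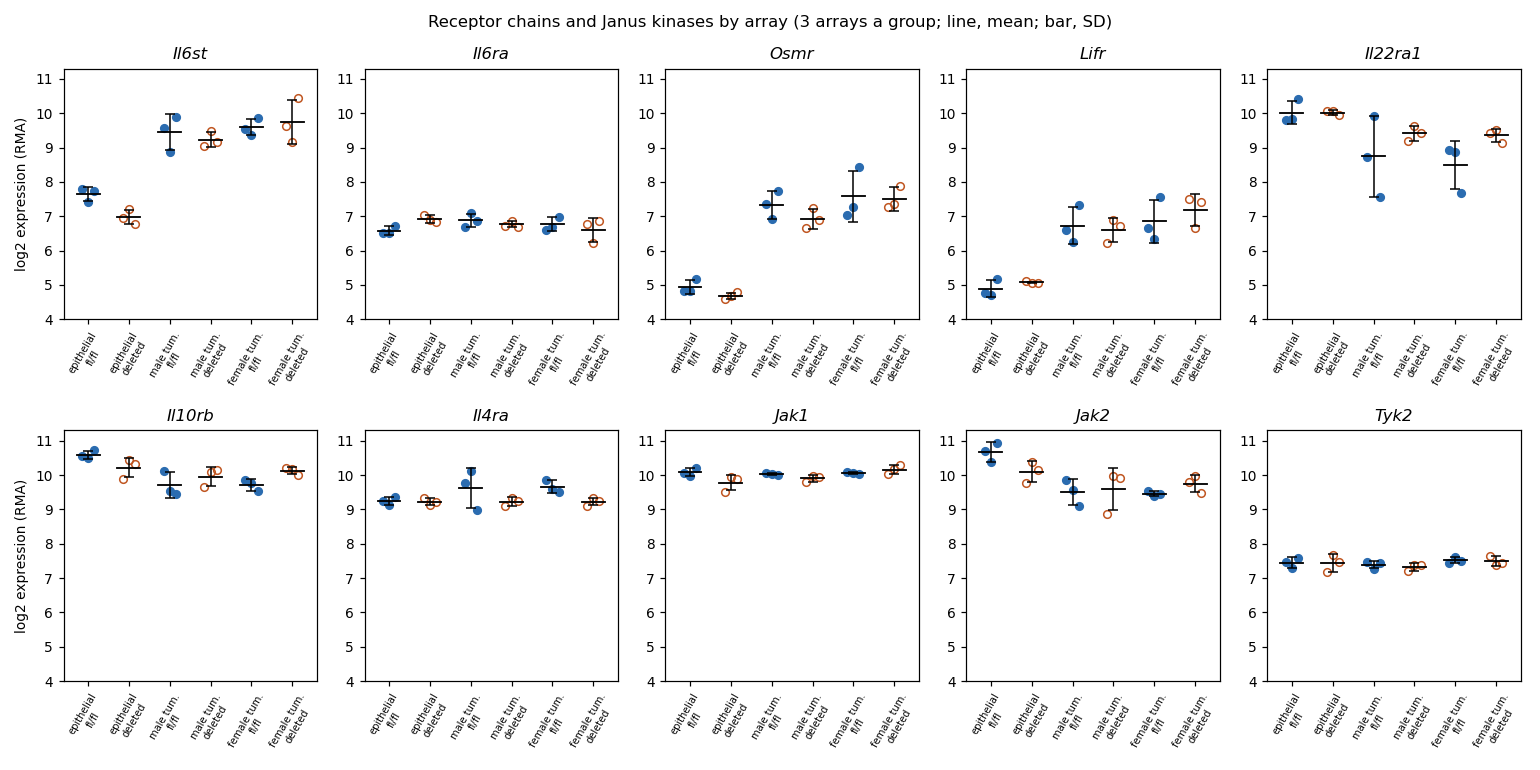
Log2 expression (RMA) of each member in the 18 arrays, in 6 groups of 3 (filled points, Stat3fl/fl; open points, Stat3-deleted; line, mean; bar, SD). Osmr, Il6st and Lifr lie higher in all 12 tumours than in all 6 epithelial samples, and Tyk2 varies least, between 7.18 and 7.68.

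The largest differences between tumours and epithelial cells among the 10 members were those of Osmr, Lifr and Il6st. In control mice Osmr, Lifr and Il6st were higher in tumours, and Jak2, Il22ra1 and Il10rb were lower, while Il6ra, Il4ra, Jak1 and Tyk2 did not pass the test. These 6 called members of 10 stand against a background of 65.7% of the 17316 genes tested, 30.4% higher and 35.3% lower, so the number called is near the share for all genes. Many marker means separated the tissues as fully as these receptors did. Besides fibroblasts and macrophages, the means of smooth muscle (7.60 to 9.52 against 5.65 to 6.20), endothelium (7.32 to 7.89 against 5.30 to 5.68), neutrophils (5.28 to 8.13 against 4.43 to 4.86) and B and plasma cells (6.58 to 8.35 against 5.69 to 6.18) were higher in every tumour. The mean of T and NK cells (5.69 to 6.72 against 6.78 to 9.12) was lower in every tumour, and that of handling stress genes lay at 7.74 to 8.44 against 8.44 to 8.91. Their part in these differences was not tested. In such bulk samples fewer cells of a type and less RNA per cell cannot be told apart.

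Osmr, the oncostatin M receptor chain, showed the largest difference of the 10. It measured 4.82, 4.83 and 5.17 in control epithelial cells and 4.59, 4.68 and 4.78 in Stat3-deleted ones. Control tumours measured 7.35, 6.92 and 7.74 in males and 7.05, 7.26 and 8.43 in females. Stat3-deleted tumours measured 6.65, 7.23 and 6.88 in males and 7.26, 7.36 and 7.89 in females. No tumour overlapped any epithelial sample, and the lowest tumour was a Stat3-deleted male one. The difference was 2.52 ± 0.26 in control mice (5.73-fold, adjusted p = 1.53e-06) and 2.53 ± 0.26 in Stat3-deleted mice (5.78-fold, adjusted p = 2.37e-06).

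Il6st, the shared gp130 chain, was also higher in every tumour than in every epithelial sample. It measured 7.79, 7.41 and 7.73 in control epithelial cells and 6.94, 7.21 and 6.78 in Stat3-deleted ones. Control tumours measured 9.56, 8.87 and 9.90 in males and 9.54, 9.38 and 9.85 in females. Stat3-deleted tumours measured 9.05, 9.48 and 9.17 in males and 9.62, 9.16 and 10.45 in females. The lowest tumour, at 8.87, lay well above the highest epithelial sample, at 7.79, and the highest value was female tumour 18. The difference was 1.87 ± 0.25 in control mice (3.66-fold, adjusted p = 1.82e-05) and 2.51 ± 0.25 in Stat3-deleted mice (5.69-fold, adjusted p = 2.01e-06).

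Lifr, the receptor chain of leukaemia inhibitory factor, followed the same order of tissues. It measured 4.77, 4.72 and 5.17 in control epithelial cells and 5.10, 5.07 and 5.07 in Stat3-deleted ones. Control tumours measured 6.61, 6.25 and 7.32 in males and 6.65, 6.33 and 7.56 in females. Stat3-deleted tumours measured 6.22, 6.90 and 6.71 in males and 7.49, 6.65 and 7.42 in females. The tissues did not overlap, with a gap between 5.17 and 6.22. The difference was 1.90 ± 0.27 in control mice (3.73-fold, adjusted p = 3.24e-05) and 1.82 ± 0.27 in Stat3-deleted mice (3.53-fold, adjusted p = 6.62e-05). Osmr and Lifr were dim in epithelial cells, at lowest the 2.8 and the 5.9 percentile of tested genes on an array, and signal over background was not given, so the size of their rise is uncertain.

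Il6ra, the chain that binds interleukin-6, did not share this pattern. It lay between 6.51 and 7.04 in the 6 epithelial samples and between 6.21 and 7.09 in the 12 tumours. The difference was 0.25 ± 0.15 in control mice (adjusted p = 0.148) and -0.24 ± 0.15 in Stat3-deleted mice (adjusted p = 0.151), with 95% intervals of -0.06 to 0.55 and -0.55 to 0.07.

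The receptor pair for interleukin-22 went the other way in control mice. Il22ra1, the chain specific to interleukin-22 and its relatives, measured 9.81, 9.84 and 10.40 in control epithelial cells and 10.05, 10.07 and 9.94 in Stat3-deleted ones. Control tumours measured 8.73, 9.93 and 7.56 in males and 8.92, 8.88 and 7.68 in females. Stat3-deleted tumours measured 9.19, 9.62 and 9.42 in males and 9.43, 9.50 and 9.14 in females. Control tumours spread widely and male control tumour 8 overlapped the epithelial samples, whereas the 6 Stat3-deleted tumours lay close together. The tissue difference was -1.40 ± 0.37 in control mice (adjusted p = 0.00404) and -0.64 ± 0.37 in Stat3-deleted mice (adjusted p = 0.136). The 2 lowest values belonged to the colon-marker tumours 9 and 15, and without them the control difference was -0.90 (adjusted p = 0.00511). A second Il22ra1 probe set gave -1.24 ± 0.29 in control mice (adjusted p = 0.00167).

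Il10rb, the chain shared by interleukin-10 and interleukin-22, measured 10.56, 10.50 and 10.73 in control epithelial cells and 9.90, 10.43 and 10.33 in Stat3-deleted ones. Control tumours measured 10.13, 9.54 and 9.45 in males and 9.86, 9.78 and 9.53 in females. Stat3-deleted tumours measured 9.64, 10.08 and 10.15 in males and 10.22, 10.17 and 10.01 in females. In control mice every tumour lay below every epithelial sample, and in Stat3-deleted mice the tissues overlapped. The difference was -0.88 ± 0.17 in control mice (1.85-fold lower, adjusted p = 0.000484) and -0.18 ± 0.17 in Stat3-deleted mice (adjusted p = 0.37).

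Among the kinases only Jak2 passed the test. Jak2 measured 10.71, 10.38 and 10.94 in control epithelial cells and 9.77, 10.38 and 10.15 in Stat3-deleted ones. Control tumours measured 9.85, 9.58 and 9.10 in males and 9.55, 9.40 and 9.44 in females. Stat3-deleted tumours measured 8.88, 9.96 and 9.92 in males and 9.80, 9.96 and 9.48 in females. Control tissues did not overlap, and Stat3-deleted tissues did. The difference was -1.19 ± 0.23 in control mice (2.28-fold lower, adjusted p = 0.000491) and -0.44 ± 0.23 in Stat3-deleted mice (adjusted p = 0.11). Jak1, which serves most of these receptors, lay between 9.52 and 10.20 in epithelial cells and between 9.79 and 10.28 in tumours, with a control difference of -0.03 ± 0.12 (95% interval -0.29 to 0.22). Tyk2 lay between 7.18 and 7.68 in epithelial cells and between 7.20 and 7.65 in tumours, with a control difference of 0.00 ± 0.13 (-0.26 to 0.27).

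In Stat3-deleted mice 3 of the 10 members were called, Osmr, Il6st and Lifr, against 66.5% of all genes (30.3% higher and 36.2% lower). Quantile normalization raised that count to 7, adding Il6ra, Il10rb, Jak2 and Tyk2 as lower, and array weights raised it to 5, adding Il22ra1 and Jak2. The interaction of deletion and tissue tests whether the tissue difference depends on Stat3, and 0 of the 10 members were called (background 0.0116%), 3 at an unadjusted p under 0.05 against 9.38% of all genes. Those 3 were Il10rb at 0.70 ± 0.25 (adjusted p = 0.486), Jak2 at 0.75 ± 0.33 (0.514) and Il6ra at -0.49 ± 0.21 (0.51). The losses of the Il10rb, Jak2 and Il22ra1 calls in Stat3-deleted mice were therefore not shown to be differences between the genotypes. Arrays not overlapping between tissues were found for 5 of 10 members in control mice (background 51.1%) and 4 of 10 in Stat3-deleted mice (55.9%).

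**Figure D2:**
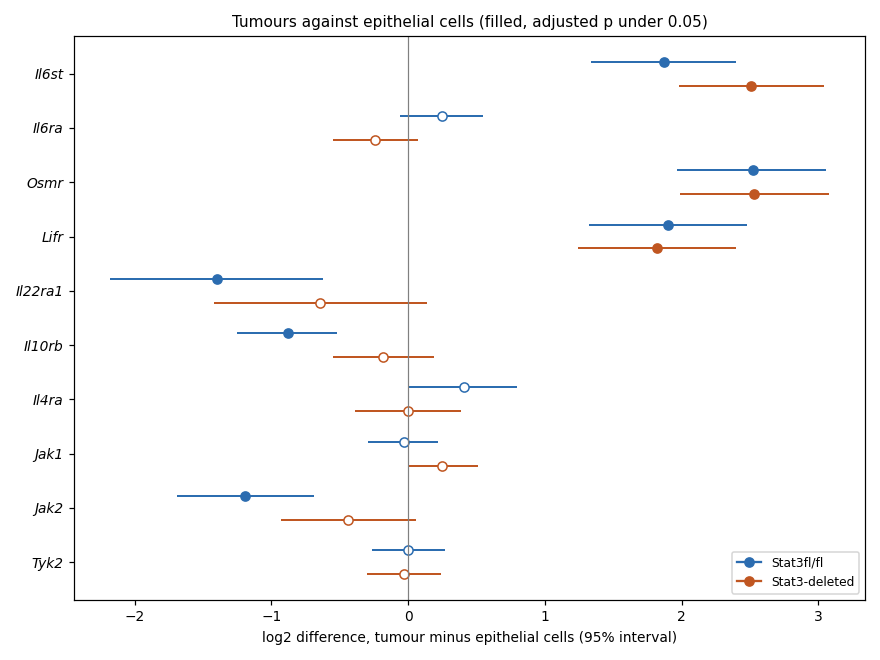
Log2 difference of tumours minus epithelial cells for each member, with 95% intervals, in Stat3fl/fl (blue) and Stat3-deleted mice (orange); filled points passed an adjusted p of 0.05. Osmr, Il6st and Lifr lie between 1.82 and 2.53 in both, and Il22ra1, Il10rb and Jak2 are filled in control mice only.

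The order of the 6 groups repeated this split. For Osmr and Il6st the 4 tumour groups came first, with neighbouring group means 0.08 to 0.42 and 0.15 to 0.21 apart and overlapping arrays. A step of 1.98 (Osmr) and 1.59 (Il6st) followed down to control epithelial cells, against pooled SDs within groups of 0.40 and 0.39. For Lifr the step was 1.53 (pooled SD 0.43). For Il22ra1 the only neighbouring groups whose arrays did not overlap were Stat3-deleted epithelial cells and Stat3-deleted male tumours, 0.61 apart with a pooled SD of 0.59. Il22ra1 was the most variable member within groups, at the 95.6 percentile of all tested genes by pooled SD, and Jak1 the least, at the 4.0 percentile (0.13, against a median of 0.24). For Jak2, Tyk2, Il6ra and Il4ra all neighbouring groups overlapped.

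No member passed the test when Stat3 was removed from the epithelium. The counts called were 0 of 10 in epithelial cells (background 0.0231%), 0 in male tumours (0.231%), 0 in female tumours (0.104%) and 0 over both sexes (0.71%). At an unadjusted p under 0.05 the counts were 2, 0, 0 and 3 of 10, against 6.8%, 7.52%, 5.03% and 12% of all genes. The deletion effect did not pass in any member when female and male tumours were compared, where 0 genes of all passed (0 members and 0.936% of all genes at an unadjusted p under 0.05).

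In epithelial cells the 3 Stat3-deleted arrays lay below the 3 controls for Il6st, Osmr, Il10rb and Jak1 and above them for Il6ra, which is 5 of 10 members against 14.1% of all genes (4 lower against 7.81%, 1 higher against 6.3%). The difference was -0.67 ± 0.29 for Il6st (95% interval -1.28 to -0.05, adjusted p = 0.722), -0.38 ± 0.20 for Il10rb and 0.35 ± 0.17 for Il6ra. Jak2 differed by -0.58 ± 0.27 and Jak1 by -0.29 ± 0.14, with the same adjusted p of 0.722. Il22ra1 differed by 0.01 ± 0.43. Osmr differed by only -0.26 ± 0.30 (adjusted p = 0.863). Its Stat3-deleted values of 4.59, 4.68 and 4.78 lay close to the array 25th percentiles of 4.57, 4.54 and 4.54. With arrays weighted by their fit to the model Il6st alone was called (-0.72, adjusted p = 0.0311), and there replicate 6 had a weight of 4.87 against 0.30 and 0.59 for replicates 4 and 5. The mean of 12 T and NK cell markers lay between 6.78 and 7.40 in the controls and between 7.48 and 9.12 in the Stat3-deleted samples, highest in replicate 4, and its part in these differences was not tested. Without replicate 4 the differences were -0.65 for Il6st, -0.41 for Jak2, -0.22 for Il10rb and -0.16 for Jak1, the last 2 being over 1.5 times smaller.

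In tumours the largest differences with deletion were those of Il22ra1 and Il4ra, in opposite directions, and neither passed over both sexes. The genotypes also differed in markers of gut segment. The mean of 2 ileum markers ranged from 5.05 to 9.41 over the 6 control tumours and from 4.18 to 4.61 over the 6 with the deletion, and 1 of the 2 was called lower over both sexes. Control tumour 8, which was the highest tumour in both Il4ra and Il22ra1, had the highest ileum mean, 9.41. All 8 macrophage markers had lower values with deletion (median -0.31 over both sexes), with 0 called. Of 5 neutrophil markers, 4 had lower values over both sexes (median -0.3) and 1 higher. Among them 1 was called lower, over both sexes and in male tumours. The part of these in the differences below was not tested. Il4ra, the receptor chain for interleukin-4 and interleukin-13, measured 9.24, 9.12 and 9.35 in control epithelial cells and 9.34, 9.12 and 9.23 in Stat3-deleted ones. Control tumours measured 9.78, 10.12 and 8.99 in males and 9.87, 9.59 and 9.52 in females. Stat3-deleted tumours measured 9.09, 9.34 and 9.26 in males and 9.11, 9.33 and 9.25 in females. In all, 5 of the 6 control tumours lay above all 6 Stat3-deleted tumours, and control tumour 9 lay below them all. The difference over both sexes was -0.41 ± 0.15 (adjusted p = 0.255), -0.40 in males and -0.43 in females. Without tumour 9 it was -0.57 (adjusted p = 0.0169), and without tumours 9 and 15 it was -0.61 (adjusted p = 0.017). Without tumour 8, the highest, it was smaller, at -0.29 over both sexes (adjusted p = 0.305) and -0.16 in males, against -0.72 in males without tumour 9. With array weights Il4ra was called in female tumours (-0.53, adjusted p = 0.0348). Il4ra in control tumours against control epithelial cells was 0.41 ± 0.19 (adjusted p = 0.064), and its call depended on the fit. It was 0.57 (adjusted p = 0.00229) without tumour 9 and 0.45 (adjusted p = 0.0471) with arrays centred on their medians, but 0.28 (adjusted p = 0.122) without tumour 8 and 0.27 (adjusted p = 0.262) with quantile normalization.

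Il22ra1 was 0.76 ± 0.30 higher in Stat3-deleted than in control tumours over both sexes (95% interval 0.12 to 1.41), which did not pass (adjusted p = 0.304). The difference was 0.67 ± 0.43 in males and 0.86 ± 0.43 in females, and only in females did the arrays not overlap. In males it was 0.08 without tumour 9 and 1.26 without tumour 8, and in females it was 0.45 without tumour 15 and 1.07 without tumour 13. Over both sexes it was 1.06 without control tumour 8 (adjusted p = 0.0469), without tumour 9 it was 0.47 and without tumours 9 and 15 it was 0.27 (adjusted p = 0.755), while array weights gave 0.84 (adjusted p = 0.0182). The second Il22ra1 probe set gave 0.55 ± 0.24 (adjusted p = 0.346). Il10rb, its partner chain, was 0.33 ± 0.14 higher (adjusted p = 0.36), 0.22 without tumours 9 and 15. Arrays did not overlap for 1 of 10 members in male tumours (Jak1, lower; background 10.1%, 8.03% lower) and for 3 of 10 in female tumours (Il22ra1 and Il10rb higher, Il4ra lower; background 15.6%, 5.2% higher and 10.4% lower), and over both sexes for 0 of 10 (1.36%).

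No gene of the gp130 family was called with deletion in tumours. Over both sexes the difference was -0.03 ± 0.20 for Il6st (95% interval -0.46 to 0.40), -0.25 ± 0.21 for Osmr (-0.69 to 0.20), 0.11 ± 0.22 for Lifr (-0.36 to 0.58) and -0.14 ± 0.12 for Il6ra (-0.39 to 0.11). The kinases gave -0.01 ± 0.10 for Jak1, 0.18 ± 0.19 for Jak2 and -0.05 ± 0.10 for Tyk2. Male and female tumours, averaged over genotypes, differed in 0 of 10 members (background 0.0231%, and 0 members against 6.13% of all genes at an unadjusted p under 0.05). The largest of these differences was that of Osmr, male minus female, at -0.42 ± 0.21 (adjusted p = 0.749).

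**Figure D3:**
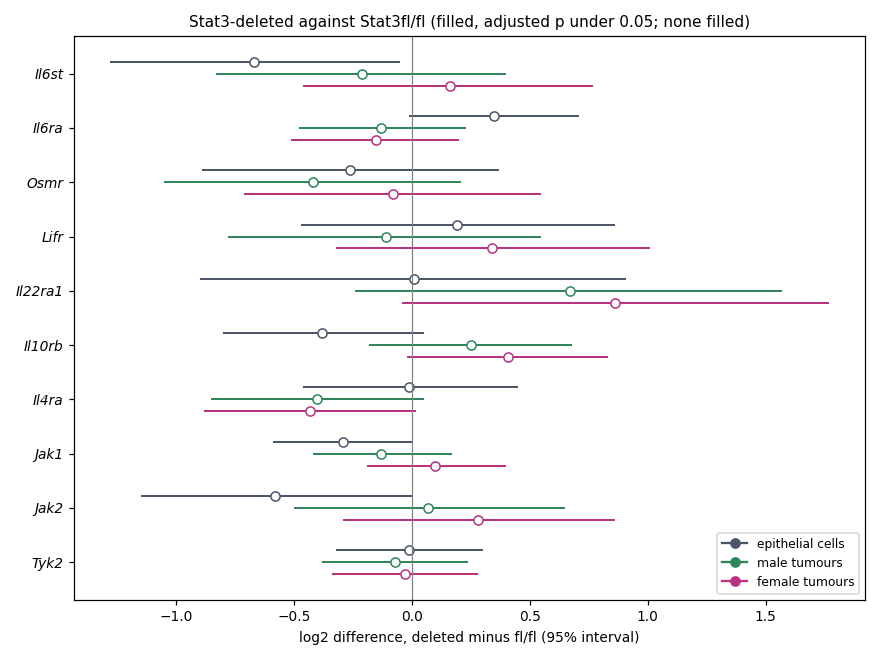
Log2 difference of Stat3-deleted minus Stat3fl/fl for each member, with 95% intervals, in epithelial cells (grey), male tumours (green) and female tumours (magenta). No point passed an adjusted p of 0.05; Il10rb lies at -0.38 in epithelial cells and at 0.25 and 0.41 in the tumours.

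Among the tumours the gp130 receptors were highest in the same few arrays. Tumours 9, 15 and 18 held the 3 highest values of Il6st (9.90, 9.85 and 10.45) and of Osmr (7.74, 8.43 and 7.89), and with tumour 16 the 4 highest of Lifr. The same 3 tumours held the 3 highest means of the macrophage markers (8.78, 9.25 and 8.98), of the fibroblast markers (9.76, 9.84 and 10.77) and of the neutrophil markers (7.14, 8.13 and 7.13). Other cell types differed. The smooth muscle means were low there (7.89, 8.04 and 8.57), and the endothelium, mast, B and plasma, and T and NK cell means had other tumours among their 3 highest. The feedback, sheddase, STAT and other receptor lists described below also had their 3 highest means in these 3 tumours. Tumours 15 and 9, the colon-marker tumours, also had the lowest epithelial marker means, 11.10 and 11.16. Single epithelial markers differed in this. Krt20 was 9.81 and 9.90 there and 11.03 to 12.09 in the other tumours. Epcam (11.56 and 11.77) and Cdh1 (11.44 and 11.45) lay within the range of the other tumours. The part of these cell types in the spread of the receptors was not tested.

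**Figure D4:**
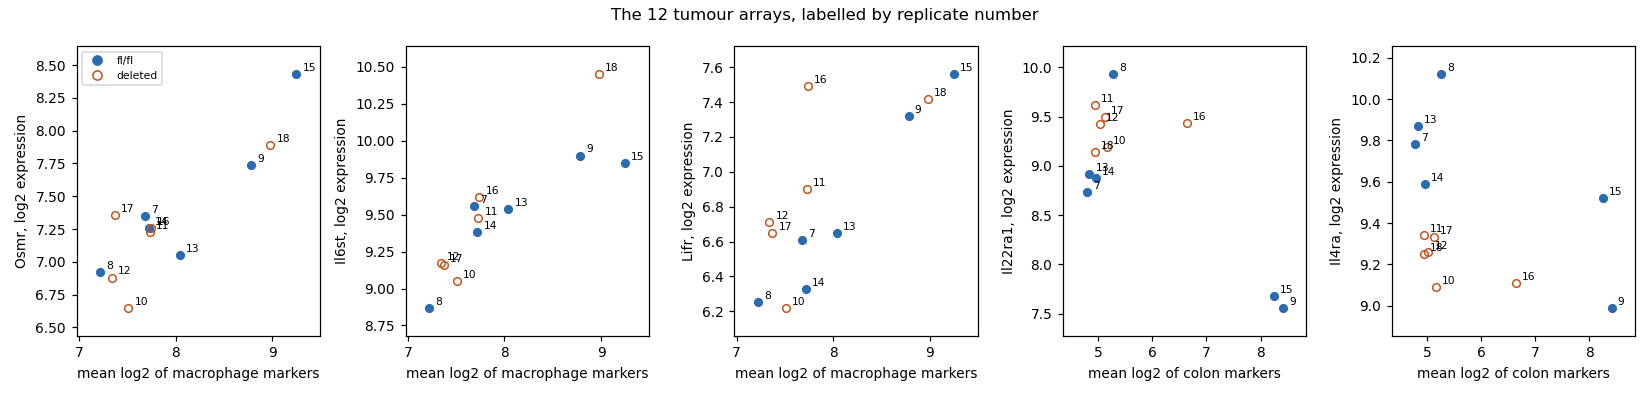
The 12 tumour arrays labelled by replicate number (filled, Stat3fl/fl; open, Stat3-deleted), with the log2 expression of Osmr, Il6st and Lifr against the mean of 8 macrophage markers and of Il22ra1 and Il4ra against the mean of 4 colon markers. Tumours 9, 15 and 18 lie at the upper right for Osmr and Il6st, and tumours 9 and 15 lie apart at 7.56 and 7.68 for Il22ra1.

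The genes whose pattern over the 18 arrays was most like that of each of the 3 most variable members were found by the root mean square difference after centring each gene on its mean. For Osmr they were Csf1r (0.24), Nid1 (0.27) and Igf1 (0.27), for Il6st Twsg1 (0.29), Extl3 (0.29) and Trim13 (0.30), and for Lifr Rdx (0.19), Wdr19 (0.24) and Ltbp1 (0.24), against root mean squares of 1.25, 1.11 and 0.96 for the members themselves. Csf1r, the closest to Osmr, is one of the 8 macrophage markers. The 18 arrays include the step between the tissues, so these likenesses describe that step together with the spread within groups.

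The ligands of these receptors were mixed. Of 18 listed, 15 were measured and 13 tested. Of these, 2 were higher and 5 lower in control tumours than in control epithelial cells, 2 and 7 in Stat3-deleted mice. Over all genes 30.4% were higher and 35.3% lower in control mice, 30.3% and 36.2% in Stat3-deleted mice. The median ligand difference was -0.24 and -0.33, against -0.08 and -0.07 over all genes. The array 25th percentile itself lay at 4.51 to 4.57 in epithelial arrays and at 4.30 to 4.41 in tumour arrays. The part of this shift in the differences of dim ligands was not tested. Il6 lay between 3.75 and 4.23 in control epithelial cells, below the array's 25th percentile, and between 4.07 and 7.06 in control tumours. It was 1.25 ± 0.42 higher in control tumours (adjusted p = 0.0166) and 2.05 ± 0.42 higher in Stat3-deleted ones (adjusted p = 0.000677). Il6 was below that percentile in all 6 epithelial arrays, so it was among the genes tested only because of tumour arrays. These p-values therefore do not test its rise independently of that filter, and the size of the rise is uncertain. Il11, another gp130 cytokine, was 1.71 ± 0.42 higher (adjusted p = 0.00236) and 2.06 ± 0.42 higher (adjusted p = 0.000579). Its highest value, 9.43, was in control tumour 15. Osm and Lif, the ligands of the 2 receptor chains that rose with Il6st, were not called, at -0.26 ± 0.26 and 0.12 ± 0.25 in control mice. Il13, a ligand of Il4ra, had a mean of 6.10 in control epithelial cells and of 5.52 and 5.45 in male and female control tumours.

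Of the 16 other receptor chains tested, 2 were higher and 6 lower in control tumours, 5 and 7 in Stat3-deleted ones. The background over all genes was 30.4% higher and 35.3% lower in control mice, 30.3% and 36.2% in Stat3-deleted mice. The medians were -0.21 and -0.05, against -0.08 and -0.07 over all genes. Lepr, the leptin receptor and a structural relative of gp130, was 2.51 ± 0.25 higher in control mice (adjusted p = 1.25e-06) and 1.81 ± 0.25 higher in Stat3-deleted mice (adjusted p = 3.66e-05). It was below the 25th percentile in all 6 epithelial arrays and between 5.40 and 7.22 in the tumours. Lepr was thus among the genes tested only because of tumour arrays. Its p-values do not test the rise independently of that filter, and the size of the rise is uncertain. Ifnlr1, the partner of Il10rb for interferon lambda, fell by 0.91 ± 0.17 in control mice, and its difference in Stat3-deleted mice was -0.88 ± 0.17. Il13ra1 had means of 10.63 in control epithelial cells and of 9.68 and 10.04 in male and female control tumours. With the deletion these means were 10.06, 10.04 and 10.32. Il10ra, the partner of Il10rb for interleukin-10, was not called, at 0.42 ± 0.26 in control mice.

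The feedback genes were higher in control tumours in 8 of 17 and lower in 0, and in Stat3-deleted tumours higher in 6 and lower in 4. The medians were 0.36 and 0.22, against -0.08 and -0.07 over all genes. For these genes and for the sheddases and STAT genes below, the background was 30.4% higher and 35.3% lower in control mice. In Stat3-deleted mice it was 30.3% and 36.2%. Socs6, of the suppressor of cytokine signalling family, rose by 1.22 ± 0.15 and 0.95 ± 0.15, and Ptpn1, a phosphatase that acts on Janus kinases, by 1.21 ± 0.17 and 0.82 ± 0.17. With the deletion, Pias2 had means of 7.30 in epithelial cells and of 8.39 and 8.53 in male and female tumours. In the same groups Socs1 went the other way, with means of 7.94, 7.23 and 6.90. Both sheddases, Adam10 and Adam17, which cut receptors from the cell surface, rose in both genotypes, by 0.94 ± 0.23 and 0.75 ± 0.26 in control mice. Of 6 STAT genes, 1 was higher and 2 lower in control tumours, and 0 and 2 in Stat3-deleted ones. The higher one was Stat5b at 0.60 ± 0.14, and the lower ones were Stat2 at -0.65 ± 0.24 and Stat6, which serves Il4ra, at -0.54 ± 0.16.

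With the deletion, Stat3 was the only gene of these 5 lists called in epithelial cells, in male tumours or in female tumours. Over both sexes Stat2 was also higher in Stat3-deleted tumours, by 0.90 ± 0.20 (adjusted p = 0.044), and of the control tumours only tumour 15, at 9.31, reached the Stat3-deleted range of 9.15 to 9.72. Socs3, whose promoter match is shown above, ranged from 7.97 to 8.85 in control tumours and from 7.47 to 8.12 in Stat3-deleted ones. Its difference of -0.55 ± 0.16 did not pass (adjusted p = 0.145), and in epithelial cells it was -0.29 ± 0.23.

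**Figure D5:**
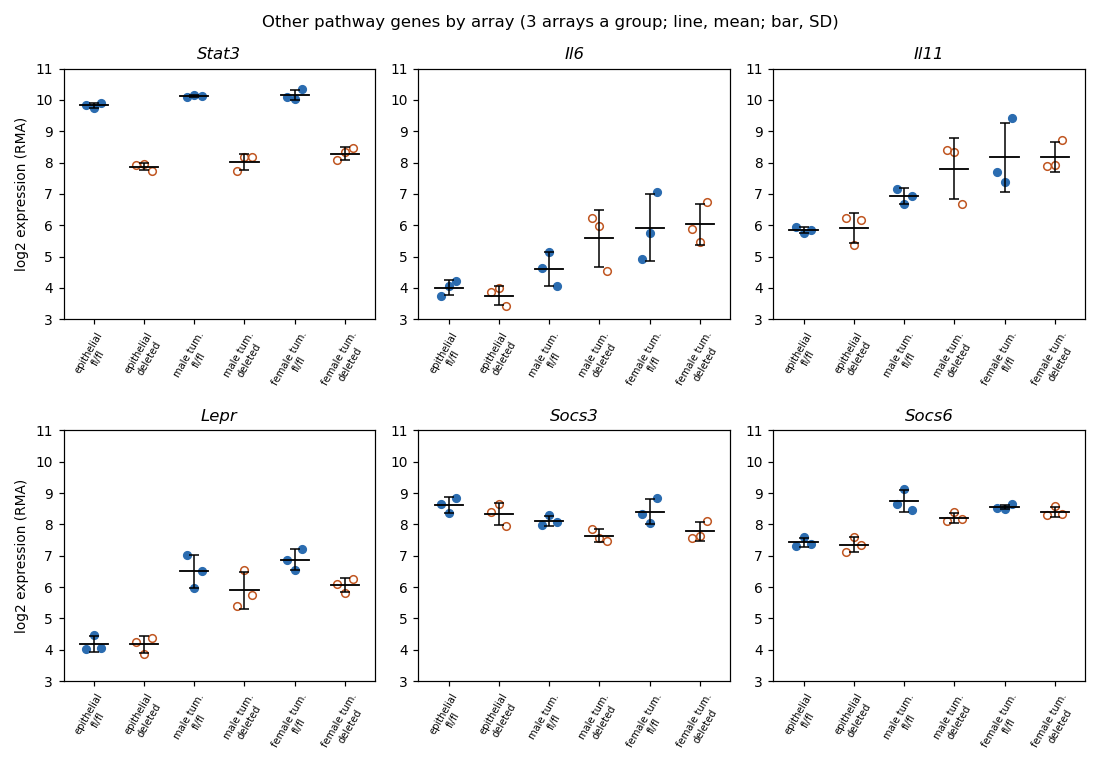
Log2 expression (RMA) of Stat3 and 5 other genes of the pathway in the 18 arrays (filled, Stat3fl/fl; open, Stat3-deleted; line, mean; bar, SD). Stat3 is lower in all 9 Stat3-deleted arrays, and Lepr is at most 4.47 in all 6 epithelial arrays and at least 5.40 in the tumours.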

How the data were processed

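The 18 arrays gave 1 column of log2 expression values each. These log2 values were deposited by the authors and made with RMA per the submitters' processing notes, which corrects background, quantile-normalizes and summarizes probes. Its version is not given in the sources used here, and no signal over background was given for dim genes. Values ran from 1.33 to 14.6, with array medians of 5.88 to 6.07. The number of arrays limits the precision.

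Of 35556 probe sets, 21789 had 1 gene symbol in the platform table, 1621 several and 12146 none, which left 19938 genes, each shown by its probe set with the highest mean. Genes above an array's 25th percentile in at least 3 arrays were tested (17316, all 10 members among them). A limma 3.58.1 model (R 4.3.3) with 6 group means and an intensity trend was fitted to all 18 arrays, with two-sided tests, Benjamini-Hochberg adjustment over all tested genes within each of 9 comparisons and a threshold of 0.05. Errors after ± are standard errors, and intervals are 95%. Comparisons that share arrays are not independent. The fit was tested on simulated data with independent noise and 1 SD per gene for all groups. That test does not cover a spread that differs between groups, such as that of Il22ra1 (group SDs of 0.07 to 1.19).

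The members and lists were chosen with earlier results of these data known. Named were all members, Stat3, and the 3 genes most like each of the 3 members whose group means ranged most. Some of the called genes with the largest differences in each pathway list were also named, but not all of them. Osm, Lif, Il13, Il10ra, Il13ra1, Socs1, Pias2 and Socs3 were named outside that rule, after their values were seen. The alternatives were quantile normalization, median centring, 2 other filters, only the compared groups, array weights, no trend, the mean of all probe sets, male tumours only, leaving out tumours 9 and 15, and leaving out each replicate. Promoters are from RefSeq. Some listed genes, Il22, Cntf, Ifnl3, Jak3, Il11ra1, Il2rg and Hspa1b among them, were not analysed here.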

Additional observations from a re-analysis of the deposited data

Results flagged for a closer look

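Il10rb, the chain shared by the receptors for interleukin-10 and interleukin-22, was flagged because its arrays separated by genotype in opposite directions in different tissues. Its difference of Stat3-deleted minus control was -0.38 in epithelial cells, where all 3 Stat3-deleted arrays (9.90 to 10.43) lay below the 3 controls (10.50 to 10.73). It was 0.41 in female tumours, where all 3 Stat3-deleted arrays (10.01 to 10.22) lay above the 3 controls (9.53 to 9.86). Neither difference passed the limma test (adjusted p = 0.722 and 0.997). The 10 members were searched for such opposite separation. Arrays did not overlap for 14.1% of all genes in epithelial cells (7.81% lower with the deletion) and for 15.6% in female tumours (5.2% higher). The share separating in opposite directions was not counted, so how unusual this is remains unknown. With 1 replicate left out the epithelial difference ranged from -0.48 to -0.22, and it was -0.22 without replicate 4. The difference of the deletion effect between tumours of both sexes and epithelial cells was 0.70 ± 0.25 and did not pass either (adjusted p = 0.486); that between female tumours alone and epithelial cells was not tested.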

How the results depend on the processing

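The 6 calls in control tumours against control epithelial cells, and the 3 in Stat3-deleted ones, held their direction and passed in all 18 fits that left out a replicate and in all 10 other alternatives, male tumours only among them. Counts of members called moved by over 1.5 times as follows. Array weights gave 1 for the deletion in epithelial cells, 1 in female tumours and 1 over both sexes, where none was called before. Over both sexes leaving out tumours 9 and 15 gave 1, and leaving out 1 replicate gave 0 to 1 (1 without tumour 8, Il22ra1, and 1 without tumour 9, Il4ra). Among Stat3-deleted tissues quantile normalization gave 7 and array weights 5. Smaller moves there, to 4, came with median centring and without epithelial replicate 5 (Jak1), and with only the compared groups, without tumour 8 and without tumours 9 and 15 (Il22ra1). Among control tissues Il4ra made the count 7 with median centring, with array weights, without tumour 9 and without tumours 9 and 15. The cause was not tested. No called difference changed sign. Of the 90 member differences, 30 uncalled ones changed sign in at least 1 fit, none larger than 0.48 in size in either fit.

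Quantile normalization turned Il4ra (0.09) and Tyk2 (0.01) in epithelial deletion, Tyk2 (-0.26) in control tissues, and Il4ra (0.05) and Jak2 (0.01) between the sexes. Median centring turned Il22ra1 (-0.05) in epithelial deletion, Il6ra (0.00) in the sex difference of the deletion, Jak1 (0.01) in control tissues, and Il4ra (0.07) and Tyk2 (0.04) in Stat3-deleted tissues. Array weights turned Il4ra (0.04) and Tyk2 (0.10) in epithelial deletion and Osmr (0.13) and Tyk2 (0.02) in female tumours. They also turned Il22ra1 (-0.48) in the sex difference of the deletion, Osmr (-0.08) in its tissue difference, Jak1 (0.04) in control tissues, Il4ra (0.01) in Stat3-deleted tissues, and Il22ra1 (-0.19) and Jak2 (0.04) between the sexes. The mean of all probe sets turned Il22ra1 in epithelial deletion (-0.09) and between the sexes (-0.00). Male tumours only turned Tyk2 in control tissues (-0.06) and Il4ra in Stat3-deleted tissues (0.00). Leaving out tumours 9 and 15 turned Il6st (0.01), Jak2 (-0.13) and Lifr (0.18) in male tumours, Osmr (0.35) in female tumours, and Il6st (0.15) and Osmr (0.07) over both sexes. It also turned Il4ra (0.22) and Il6ra (0.10) in the sex difference of the deletion, Lifr (0.25) in its tissue difference, Tyk2 (-0.01) in control tissues, and Il4ra (0.11) and Jak2 (0.04) between the sexes. The cause was not tested.

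Leaving out a replicate turned 29 differences. In the sex difference of the deletion the ranges were -0.27 to 0.29 (Il4ra), -0.15 to 0.17 (Il6ra), -0.40 to 0.78 (Il22ra1), -0.06 to 0.28 (Il10rb), -0.14 to 0.41 (Jak2) and -0.04 to 0.10 (Tyk2). In its tissue difference they were -0.22 to 0.10 (Lifr), -0.17 to 0.08 (Tyk2) and -0.12 to 0.22 (Osmr). In epithelial deletion they were -0.13 to 0.12 (Tyk2), -0.06 to 0.05 (Il4ra) and -0.10 to 0.20 (Il22ra1). In female tumours they were -0.34 to 0.35 (Osmr), -0.20 to 0.45 (Il6st), -0.11 to 0.03 (Tyk2) and -0.28 to 0.05 (Il6ra). In male tumours they were -0.50 to 0.01 (Il6st), -0.13 to 0.43 (Jak2) and -0.35 to 0.18 (Lifr). Over both sexes they were -0.02 to 0.29 (Lifr), -0.21 to 0.12 (Il6st) and -0.04 to 0.02 (Jak1). Between male and female tumours they were -0.14 to 0.15 (Il4ra), -0.15 to 0.44 (Il22ra1) and -0.15 to 0.12 (Jak2). In Stat3-deleted tissues they were -0.16 to 0.09 (Tyk2) and -0.05 to 0.05 (Il4ra), and in control tissues -0.08 to 0.07 (Tyk2) and -0.09 to 0.03 (Jak1).

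No paired analysis was possible because the replicate numbers run from 1 to 18 with none shared between groups. Signal over background was not given, which limits Osmr, Lifr, Il6 and Lepr in epithelial cells.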
